A study of Homo sapiens with 12 samples.

Results

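LINC symbols are provisional names given to long intergenic non-coding RNA genes. A row of the count table was taken as a member when its symbol was LINC followed by 5 digits and when it held at least 10 counts in 3 or more of the 12 libraries. The rule selected 101 of 967 LINC rows in a table of 56634 gene symbols, and 506 LINC rows had no count in any library. The members were thus chosen by their counts over all 4 groups, so their levels are given as a description without a test. A filter on low counts kept 14822 genes of the whole table for testing, among them 95 members. The other 6 members, LINC00941, LINC01137, LINC01176, LINC01234, LINC01296 and LINC01426, were not tested. Just inside the count rule, LINC01137 had 10 counts or more in 4 libraries and LINC00941 in 3, each with a third-highest count of 10. Just outside it, 14 LINC rows had 10 counts or more in exactly 2 libraries. LINC00624 and LINC01123 were among them, each with a third-highest count of 9.

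Bulk RNA sequencing covered HEK293, an established human embryonic kidney line, in 4 groups of 3 biological replicates. Cells of the TNF_SnxB group were given Senexin B, which inhibits CDK8 and CDK19, at 1 µM for 1 h and then 10 ng/mL TNFα, an inflammatory cytokine, for 2 h. Cells of the TNF group were given DMSO for 1 h and then TNFα for 2 h, cells of the SnxB group Senexin B for 3 h, and cells of the DMSO group 0.1% DMSO, the vehicle, for 3 h. A single line, 1 dose and 1 time were sampled, and in bulk RNA fewer expressing cells and less RNA per cell cannot be told apart.

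Library totals ran from 8705277 to 50943310 counts, with TNF library 2 the deepest and the next at 13818638. Levels are given as CPM, counts scaled to library size. The detection floor was set at 3 counts, or 0.0595 to 0.342 CPM depending on the library, and covers counting error only. The treatments showed in 2 control genes. NFKBIA, an inhibitor and target of NF-kB, averaged 271 ± 1.68 CPM in TNF cells and 27.3 ± 1.94 CPM in DMSO cells (SD, n = 3 each), and MYC averaged 18.0 ± 0.789 CPM in SnxB cells and 91.1 ± 4.00 CPM in DMSO cells (SD, n = 3 each). Of 12 HEK293 marker genes 10 passed the filter, and of 11 markers of leukocytes, endothelium and fibroblasts 1 did, COL1A1, while CD3E, CDH5 and DCN had no count. TNF_SnxB library 1 differed from libraries 2 and 3 of its group, with chi-square values of 5.79 and 5.52 per degree of freedom, against 1.21 between libraries 2 and 3 and 1.07 to 1.59 for replicates elsewhere. The chi-square values alone do not tell which libraries are typical of that group. Calls and fold changes of members in TNF_SnxB comparisons are therefore also given without libraries 2 and 3. Those of called members are given without library 1 as well, while the counts of groups without overlap use all libraries.

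Long non-coding RNAs are transcribed by RNA polymerase II and are mostly spliced and polyadenylated, but they hold no long open reading frame. Most are made at low levels, and many start beside a coding gene, from a shared promoter region read in both directions. Some loci first named LINC were later found to encode short proteins and have since received other names. Mediator is the complex that links transcription factors to RNA polymerase II, and CDK8 and CDK19 are the kinases of its detachable module.

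The annotation did not bear out the word intergenic for every member. RefSeq types 92 members as lncRNA, 8 as protein-coding and 1, LINC01296, as a transcribed pseudogene. In GENCODE release 29 (GRCh38), 99 members could be placed, on chromosomes that included chromosome 1 with 14 members. The span of 66 of the 99 overlapped another gene and that of 26 a protein-coding gene. Exon bases were shared with another gene by 49 members, and by 37 with a gene on the opposite strand. The TruSeq RNA kit named in the labels does not mark strand, so reads of such a pair cannot be told apart where the exons overlap. Of the 99, 13 lay head to head with a protein-coding gene, their starts at most 1000 bp apart on opposite strands.

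The 3 protein-coding loci with the highest level per length are shown by their coding sequence, since they are the members highest per length. They come from GENCODE release 29 (GRCh38), are written 5′ to 3′, and have the start codon and the stop codon in capitals. LINC00998 is now SMIM30, a small integral membrane protein, with a 180-base coding sequence for 59 residues at chr7:113117399-113117578 on the minus strand. LINC01420 is now NBDY, a microprotein of the mRNA decapping complex, with 207 bases for 68 residues at chrX:56729354-56729560 on the plus strand. LINC00493 is now SMIM26, a mitochondrial microprotein, with 288 bases for 95 residues spread over exons within chr20:18567479-18569405 on the plus strand.
LINC00998: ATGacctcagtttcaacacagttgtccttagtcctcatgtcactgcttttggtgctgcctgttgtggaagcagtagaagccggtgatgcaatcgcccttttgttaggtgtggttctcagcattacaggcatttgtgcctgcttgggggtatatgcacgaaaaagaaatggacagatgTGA
LINC01420: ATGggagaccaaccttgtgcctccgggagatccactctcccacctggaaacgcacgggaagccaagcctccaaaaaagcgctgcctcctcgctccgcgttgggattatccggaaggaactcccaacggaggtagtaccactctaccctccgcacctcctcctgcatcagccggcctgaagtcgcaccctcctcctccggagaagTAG
LINC00493: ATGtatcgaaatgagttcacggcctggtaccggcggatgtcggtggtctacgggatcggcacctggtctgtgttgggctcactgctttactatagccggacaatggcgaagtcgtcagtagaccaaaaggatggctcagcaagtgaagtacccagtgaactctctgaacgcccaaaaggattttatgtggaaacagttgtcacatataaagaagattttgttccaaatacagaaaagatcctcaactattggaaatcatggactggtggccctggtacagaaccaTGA

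LINC00998 was the most abundant member, with a mean of 72.4 CPM over the 12 libraries, followed by LINC00094 at 34.1 CPM, LINC01578 at 30.4 CPM, LINC01420 at 24.1 CPM and LINC00493 at 23.0 CPM. LINC00094 is now BRD3OS, on the strand opposite to BRD3, and LINC01578 is now CHASERR, a lncRNA that acts on the neighbouring chromatin-remodeller gene CHD2. Per kb of exon length the order was LINC00998 at 38.2, LINC00493 at 21.0 and LINC01420 at 14.1 CPM per kb, ahead of LINC00674 at 8.50 and LINC00888, now the small nucleolar RNA host gene SNHG33, at 6.42 CPM per kb. The 8 loci that RefSeq types as protein-coding held 27.9% of the summed member level, 163 of 584 CPM, and LINC00998 alone held 12.4%. They also include LINC00116, the mitochondrial microprotein mitoregulin (MTLN), at 5.85 CPM and LINC00634 (SMIM45) at 0.851 CPM.

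Over all 101 members the mean level ran from 0.553 to 72.4 CPM with a median of 2.26 CPM. A mean of 10 CPM or more was reached by 15 members, 67 lay from 1 to 10 CPM and 19 lay under 1 CPM. The tested members had a median of 2.43 CPM, against 27.0 CPM for all 14822 tested genes, and 3 of the 95 were above that median. Per kb of exon length the median was 0.947 CPM for 94 tested members with a length and 6.33 CPM for 12732 tested protein-coding genes. The summed level was 585 ± 19.7 CPM in TNF_SnxB, 580 ± 7.93 CPM in TNF, 584 ± 11.4 CPM in SnxB and 588 ± 9.92 CPM in DMSO cells (SD, n = 3 each), and these ranges overlapped. The 8 protein-coding loci summed to 174 ± 14.2 CPM in TNF_SnxB, 159 ± 2.58 CPM in TNF, 160 ± 5.08 CPM in SnxB and 160 ± 0.976 CPM in DMSO cells (SD, n = 3 each). The other 93 members summed to 411 ± 6.87, 422 ± 5.63, 424 ± 7.29 and 428 ± 9.14 CPM in the same order (SD, n = 3 each). Their TNF_SnxB libraries, at 404 to 417 CPM, overlapped those of TNF and lay under every SnxB and DMSO library. This difference was not tested.

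**Figure D1:**
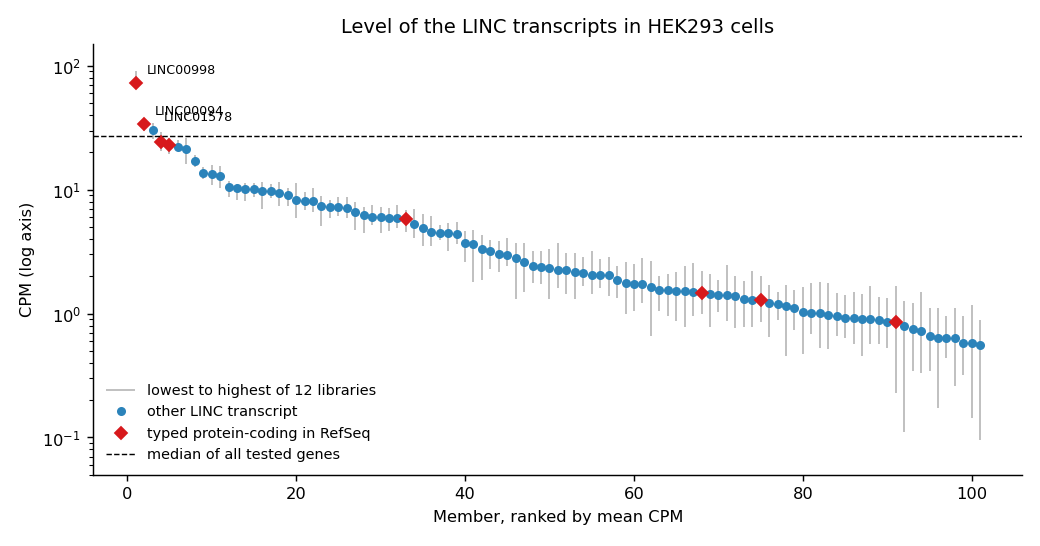
Mean CPM of each of the 101 members on a log axis, ranked from high to low, with the lowest and highest of the 12 libraries as a grey line and the median of all tested genes (27.0 CPM) as a dashed line. LINC00998, LINC00094 and LINC01578 lie above the dashed line, and 4 of the 8 protein-coding loci are among the 5 most abundant members.

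The comparison of TNF with DMSO asked which members TNFα changed within 2 h. The comparison of SnxB with DMSO uses the same DMSO libraries. None of the 95 tested members was called, that is, none had a Benjamini-Hochberg adjusted p under 0.05 in the edgeR quasi-likelihood test over all genes, where 2.02% of all tested genes were called (1.43% higher and 0.594% lower). DESeq2 also called 0 members. Of the 95 members 6 had an unadjusted edgeR p under 0.05, 3 higher and 3 lower in TNF cells, beside 10.4% of all tested genes. The member nearest to a call was LINC01232, whose locus on the minus strand of chromosome 13 shares exon bases with TM9SF2 on the other strand. LINC01232 stood at 1.33, 1.49 and 1.06 CPM in the TNF libraries, against 2.52, 2.33 and 2.16 CPM in the DMSO libraries. All 3 TNF libraries were lower than every DMSO library, with a log2 fold change of −0.75 (SE 0.215) and an edgeR adjusted p of 0.0704. Its level was 1.21, 1.83 and 1.64 CPM in TNF_SnxB cells and 1.60, 1.99 and 1.69 CPM in SnxB cells, which also lay under the DMSO values. When TNF_SnxB libraries 2 and 3 were left out of the fit, LINC01232 passed, with a log2 fold change of −0.74 and an edgeR adjusted p of 0.0372, and it also passed with TNF_SnxB library 1 left out.

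Abundant members gave the tightest bounds on a TNFα effect. LINC00998 had 65.8, 70.9 and 65.3 CPM in the TNF libraries, against 71.8, 69.1 and 69.6 CPM in the DMSO libraries, with overlapping groups and a log2 fold change of −0.04 (95% interval −0.18 to 0.09). LINC01578 (CHASERR) had 27.5, 29.7 and 31.4 CPM in the TNF libraries, against 31.3, 30.1 and 31.2 CPM in the DMSO libraries, with a log2 fold change of −0.06 (95% interval −0.21 to 0.09). Over all 95 members, the 95% interval of 89 lay within a 2-fold change in either direction and that of 51 within a 1.5-fold change. The groups did not overlap for 10 members, 4 higher and 6 lower in TNF cells, where 20.2% of all tested genes had groups without overlap.

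Senexin B alone was compared with DMSO for the effect of the kinase inhibitor over 3 h. No member was called by edgeR, where 2.03% of all tested genes were called (0.344% higher and 1.69% lower), and DESeq2 called 0 of the 54 members to which it gave an adjusted p. An unadjusted edgeR p under 0.05 was found for 5 members, beside 12.1% of all tested genes. Of these members LINC01534, LINC00623 and LINC00511 were higher in SnxB cells and LINC01128 and LINC00641 lower. LINC01534, now ZNF567-DT for its divergent position to the zinc-finger gene ZNF567, had 1.48, 2.46 and 1.90 CPM in the SnxB libraries, against 1.22, 0.911 and 1.38 CPM in the DMSO libraries. Its groups did not overlap, the log2 fold change was 0.74 (SE 0.300), and the edgeR adjusted p of 0.288 was the smallest of the set. LINC00511, a lncRNA of chromosome 17, had 2.62, 2.27 and 3.17 CPM in the SnxB libraries, against 2.00, 1.92 and 1.81 CPM in the DMSO libraries. Its log2 fold change of 0.49 had a 95% interval of 0.00 to 0.97 and an edgeR adjusted p of 0.408. Without overlap between the groups were 7 members, 4 higher and 3 lower in SnxB cells, against 20.4% of all tested genes. The interval of 79 members lay within a 2-fold change.

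**Figure D2:**
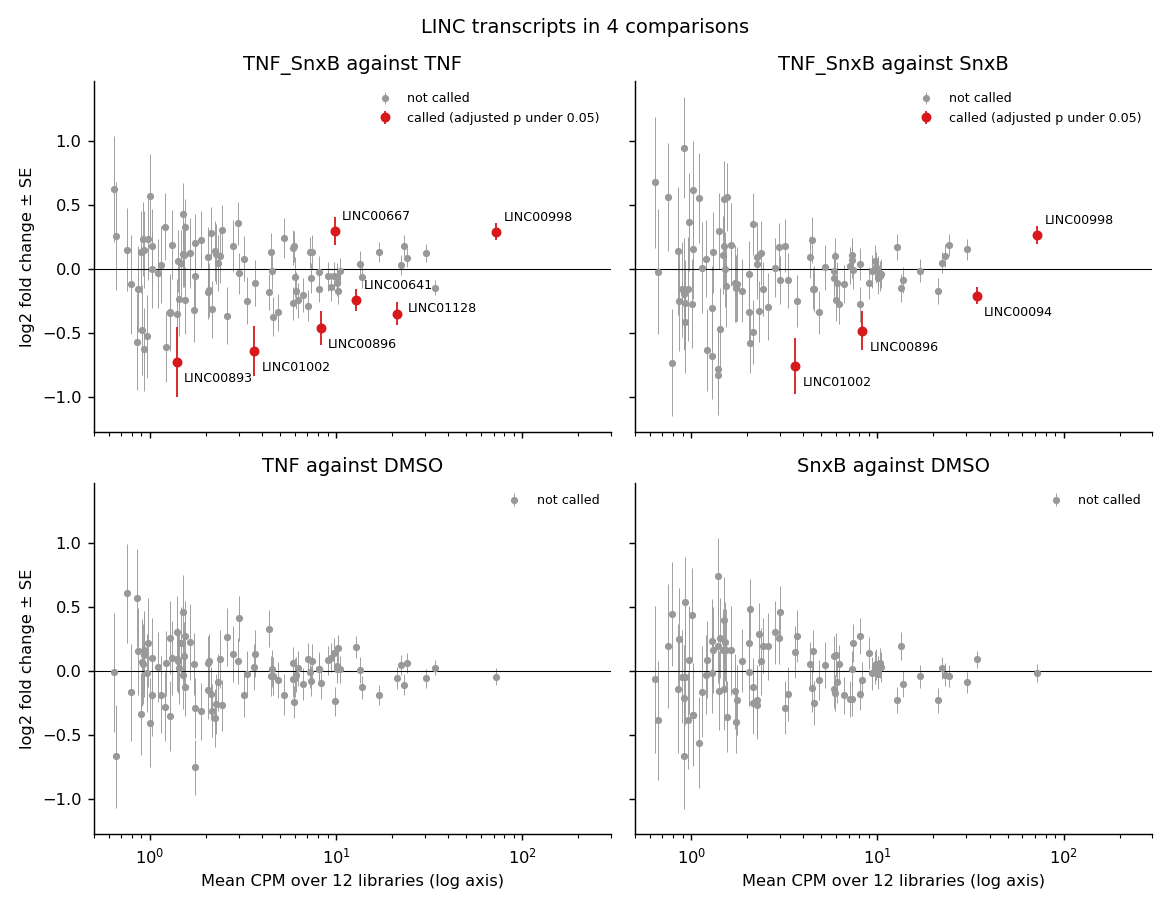
The log2 fold change (± SE) of the 95 tested members against their mean CPM (log axis) in 4 comparisons, with called members in red and named. All members are grey in TNF against DMSO and in SnxB against DMSO, 7 are called in TNF_SnxB against TNF and 4 in TNF_SnxB against SnxB, and the error bars widen toward low CPM.

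TNF_SnxB cells were compared with TNF cells for the effect of the inhibitor in the presence of TNFα. Here 7 of 95 members were called by edgeR (7.37%), 2 higher and 5 lower in TNF_SnxB cells, where 27.2% of all tested genes were called (13.3% higher and 13.9% lower). The called members moved little: the 2 rises were LINC00998 at a log2 fold change of 0.29 and LINC00667 at 0.30, and the falls ran from −0.24 for LINC00641 to −0.72 for LINC00893. No member was called when TNF_SnxB libraries 2 and 3 were left out, which leaves 1 TNF_SnxB library, assumed to vary like the other groups, and 2.64% of all tested genes were called then. With each library corrected for transcript GC content and length, 3 members were called, LINC00641, LINC01002 and LINC01128, beside 11.5% of all tested genes. Without library 1, 12 of 98 tested members were called, beside 44.8% of all tested genes. LINC00998 was then at 0.38 (edgeR adjusted p = 7.12e-13) and LINC01128 at −0.43 (edgeR adjusted p = 8.83e-06). LINC01002 was at −0.84 (edgeR adjusted p = 0.00043) and LINC00896 at −0.52 (edgeR adjusted p = 0.000722). LINC00641 at −0.23 (edgeR adjusted p = 0.0402) and LINC00667 at 0.30 (edgeR adjusted p = 0.0233) kept their calls. LINC00893 at −0.64 did not (edgeR adjusted p = 0.0957). DESeq2 called 3 of the 30 members to which it gave an adjusted p, LINC00896, LINC00998 and LINC01128, beside 27.5% of such genes. It did not call LINC00641 (DESeq2 adjusted p = 0.109) or LINC00667 (DESeq2 adjusted p = 0.0792), and it gave LINC00893 and LINC01002 no adjusted p.

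LINC00998 (SMIM30) had 68.9, 91.6 and 87.7 CPM in TNF_SnxB libraries 1, 2 and 3, against 65.8, 70.9 and 65.3 CPM in the TNF libraries. TNF_SnxB libraries 2 and 3 were higher than every TNF library, while library 1 lay inside their range. The log2 fold change was 0.29 (SE 0.0657, edgeR adjusted p = 0.00178), but it was 0.00 with library 1 alone (edgeR adjusted p = 0.997) and 0.11 after the GC and length correction (edgeR adjusted p = 0.0724). Its transcripts have a GC content of 39.1%, against a median of 49.5% over the members. Leaving out any 1 library of these groups kept the call.

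LINC01128 lies near the start of chromosome 1. It had 20.6, 16.0 and 17.9 CPM in the TNF_SnxB libraries, against 23.1, 22.8 and 22.6 CPM in the TNF libraries. All TNF_SnxB libraries were lower, with a log2 fold change of −0.35 (SE 0.0906, edgeR adjusted p = 0.00606), of −0.36 after the GC and length correction (edgeR adjusted p = 0.000483) and of −0.15 with library 1 alone (edgeR adjusted p = 0.668). The call was lost without TNF_SnxB library 2 (log2 fold change −0.26, edgeR adjusted p = 0.0689). LINC01128 also had the lower mean in SnxB cells, with 21.5, 21.8 and 17.2 CPM, against 26.3, 20.9 and 23.6 CPM in DMSO cells, where the groups overlapped and the edgeR adjusted p was 0.328.

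LINC00641 on chromosome 14, 2235 bp downstream of the RNA-binding protein gene HNRNPC, was the member whose groups lay apart in all 4 pairwise comparisons. It had 12.2, 12.6 and 12.6 CPM in TNF_SnxB, 15.4, 14.7 and 14.4 CPM in TNF, 10.4, 11.8 and 10.9 CPM in SnxB and 13.8, 12.9 and 12.2 CPM in DMSO cells. TNF cells were the highest and SnxB cells the lowest, with TNF_SnxB and DMSO cells between them. Against TNF, TNF_SnxB cells had a log2 fold change of −0.24 (SE 0.0857, edgeR adjusted p = 0.0364), −0.40 after the GC and length correction (edgeR adjusted p = 0.000549) and −0.28 with library 1 alone (edgeR adjusted p = 0.412). The call was lost without any 1 of the TNF libraries or without TNF_SnxB library 2 or 3, at edgeR adjusted p = 0.0576 to 0.109. None of its other comparisons was called. The log2 fold change was 0.19 for TNF against DMSO (edgeR adjusted p = 0.435) and −0.22 for SnxB against DMSO (edgeR adjusted p = 0.361). For TNF_SnxB against SnxB it was 0.17 (edgeR adjusted p = 0.265). Of the 95 tested members, 64 had overlapping groups in all 4 comparisons. These comparisons share libraries, and the matching counts over all tested genes were not made. Whether LINC00641 or the number of members is unusual therefore cannot be told.

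LINC01002 at the end of the short arm of chromosome 19 had 3.40, 2.55 and 1.79 CPM in the TNF_SnxB libraries, against 3.54, 3.75 and 4.49 CPM in the TNF libraries. The groups did not overlap, with a log2 fold change of −0.64 (SE 0.196, edgeR adjusted p = 0.0164), but library 1 differed from the lowest TNF library by less than the libraries of TNF differed among themselves. Without TNF library 3 it was −0.58 (edgeR adjusted p = 0.0524) and without TNF_SnxB library 3 it was −0.41 (edgeR adjusted p = 0.203), neither called. The value was −0.58 after the GC and length correction (edgeR adjusted p = 0.0318) and −0.18 with library 1 alone (edgeR adjusted p = 0.864). Of the 50-base words in its transcripts 69.3% also occur in genes elsewhere in the genome, FAM157A the most frequent, so its counts may be shared with copies and are uncertain.

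LINC00896 on chromosome 22 had 6.91, 6.30 and 5.93 CPM in the TNF_SnxB libraries, against 9.63, 9.07 and 6.95 CPM in the TNF libraries, again without overlap. Its log2 fold change was −0.46 (SE 0.134, edgeR adjusted p = 0.0124), −0.27 after the GC and length correction (edgeR adjusted p = 0.173) and −0.34 with library 1 alone (edgeR adjusted p = 0.480). It was −0.37 without TNF library 2 (edgeR adjusted p = 0.138) and −0.41 without TNF_SnxB library 3 (edgeR adjusted p = 0.0840), neither called. The transcript has a GC content of 61.4% and shares no 50-base word with another gene. LINC00893, now EOLA1-DT, was lower as well, with 0.768, 0.957 and 0.929 CPM in the TNF_SnxB libraries, against 1.77, 1.27 and 2.02 CPM in the TNF libraries. It barely passed, at a log2 fold change of −0.72 (SE 0.274, edgeR adjusted p = 0.0489), shares exon bases with CXorf40A, and has 29.2% of its 50-base words in common with its copy LINC00894. LINC00667 rose, with 10.4, 9.81 and 11.2 CPM in the TNF_SnxB libraries, against 6.98, 8.79 and 8.98 CPM in the TNF libraries (log2 fold change 0.30, SE 0.109, edgeR adjusted p = 0.0392, and 0.139 after the GC and length correction). With library 1 alone the log2 fold change was −0.93 for LINC00893 and 0.28 for LINC00667, with edgeR adjusted p = 0.476 and 0.50. The call of LINC00893 was lost without TNF library 1 or 3 or any 1 TNF_SnxB library (edgeR adjusted p = 0.0957 to 0.142). The call of LINC00667 was lost without any 1 TNF library or TNF_SnxB library 2 or 3 (edgeR adjusted p = 0.0539 to 0.211). In all, 19 members had groups without overlap in this comparison, 6 higher and 13 lower in TNF_SnxB cells, against 32.1% of all tested genes.

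**Figure D3:**
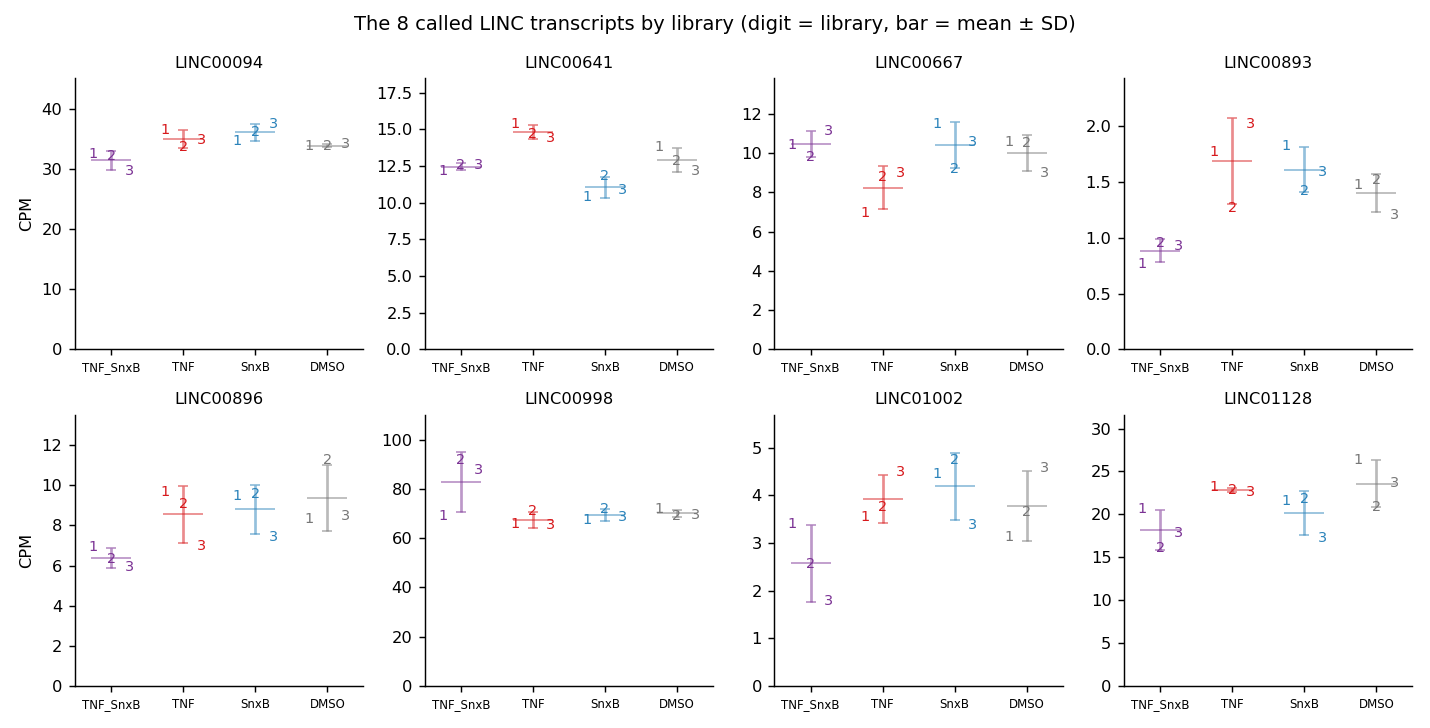
CPM of the 8 members called in a comparison, by library (digits give the library number) and group, with the group mean and SD as bars. LINC00998 is high in TNF_SnxB libraries 2 and 3 but not in library 1, and LINC00641 is highest in TNF and lowest in SnxB cells.

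Against SnxB cells, TNF_SnxB cells show what TNFα changed when the inhibitor was present. The comparison shares its TNF_SnxB libraries with the one before. Of the 95 members 4 were called by edgeR, LINC00998 higher and LINC01002, LINC00896 and LINC00094 lower in TNF_SnxB cells, where 14.2% of all tested genes were called (7.38% higher and 6.83% lower). No member was called without TNF_SnxB libraries 2 and 3, and 1, LINC01002, was called after the GC and length correction, where 1.43% and 4.26% of all tested genes were called. DESeq2 called LINC00998 alone of the 18 members to which it gave an adjusted p. It did not call LINC00094 (DESeq2 adjusted p = 0.0781) and gave LINC00896 and LINC01002 no adjusted p. LINC00094 (BRD3OS) had 32.5, 32.1 and 29.7 CPM in the TNF_SnxB libraries, against 34.6, 36.1 and 37.6 CPM in the SnxB libraries. The groups lay apart, with a log2 fold change of −0.21 (SE 0.0663, edgeR adjusted p = 0.0371), −0.14 after the correction (edgeR adjusted p = 0.247) and −0.15 with library 1 alone (edgeR adjusted p = 0.685). LINC00094 shares exon bases with BRD3, a bromodomain protein gene on the other strand. LINC00998 had a log2 fold change of 0.27 (edgeR adjusted p = 0.0135) and −0.01 with library 1 alone (edgeR adjusted p = 0.989), LINC01002 of −0.76 (edgeR adjusted p = 0.0227) and −0.30 with library 1 alone (edgeR adjusted p = 0.833), and LINC00896 of −0.48 (edgeR adjusted p = 0.0343) and −0.35 with library 1 alone (edgeR adjusted p = 0.644). Each of the 4 calls was lost without TNF_SnxB library 2, without TNF_SnxB library 3 and without SnxB library 1, with edgeR adjusted p of 0.0602 to 0.230. Without TNF_SnxB library 1, 7 of 98 tested members were called, these 4 among them, beside 35.7% of all tested genes. LINC00998 was then at 0.37 (edgeR adjusted p = 5.21e-10) and LINC01002 at −0.96 (edgeR adjusted p = 0.000436). LINC00896 was at −0.53 (edgeR adjusted p = 0.00349) and LINC00094 at −0.23 (edgeR adjusted p = 0.00768). In this comparison 9 members had groups without overlap, 2 higher and 7 lower in TNF_SnxB cells, against 22.7% of all tested genes.

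Whether the TNFα effect differed with the inhibitor was tested by the interaction, the log2 fold change with Senexin B minus that without it. No member was called by edgeR, where 2.5% of all tested genes were called (0.891% above 0 and 1.61% below). DESeq2 gave 1 member an adjusted p and did not call it. An unadjusted edgeR p under 0.05 was found for 5 members, beside 23.5% of all tested genes. LINC00998 was nearest, at 0.31 (SE 0.0976, edgeR adjusted p = 0.0674). It was 0.02 without TNF_SnxB libraries 2 and 3 (edgeR adjusted p = 0.987) and 0.10 after the GC and length correction (edgeR adjusted p = 0.724). Without TNF_SnxB library 1 it was 0.40 and called (edgeR adjusted p = 4.36e-07), as were 4 of 98 members and 30% of all tested genes. The widest estimate was that of LINC01534, at −1.09 (SE 0.404, edgeR adjusted p = 0.109), and at −1.48 without TNF_SnxB libraries 2 and 3 (edgeR adjusted p = 0.578). Its TNF_SnxB libraries held 0.878, 1.60 and 0.929 CPM, against 1.48, 2.46 and 1.90 CPM in SnxB cells, while its TNF libraries held 1.33, 1.59 and 1.14 CPM, against 1.22, 0.911 and 1.38 CPM in DMSO cells. The groups overlapped in both pairs. The interval of 56 members lay within a 2-fold difference.

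Among the tested members the group means were widest apart for LINC01232, LINC00893, LINC00634, LINC01411, LINC01002, LINC01355, LINC01534 and LINC00638. The range of the 4 group means was 0.66 for LINC01232 and 0.53 for LINC00638 on the log2 scale with 0.5 CPM added. LINC01411 had 1.32, 0.718 and 1.43 CPM in the TNF_SnxB libraries, against 0.456, 0.758 and 0.529 CPM in the SnxB libraries. These groups overlapped, and the log2 fold change of 0.95 had an SE of 0.395 (edgeR adjusted p = 0.103). Without TNF_SnxB libraries 2 and 3 it was 1.15 (edgeR adjusted p = 0.540). LINC00634 (SMIM45) had 0.768, 0.798 and 0.643 CPM in TNF_SnxB, 1.66, 0.893 and 1.32 CPM in TNF, 0.228, 0.474 and 1.27 CPM in SnxB and 1.13, 0.506 and 0.517 CPM in DMSO cells. The SnxB libraries of this gene spanned more than the group means did. At the other end, LINC00909 was among the steadiest abundant members, with a range of the group means of 0.08 on the same scale.

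**Figure D4:**
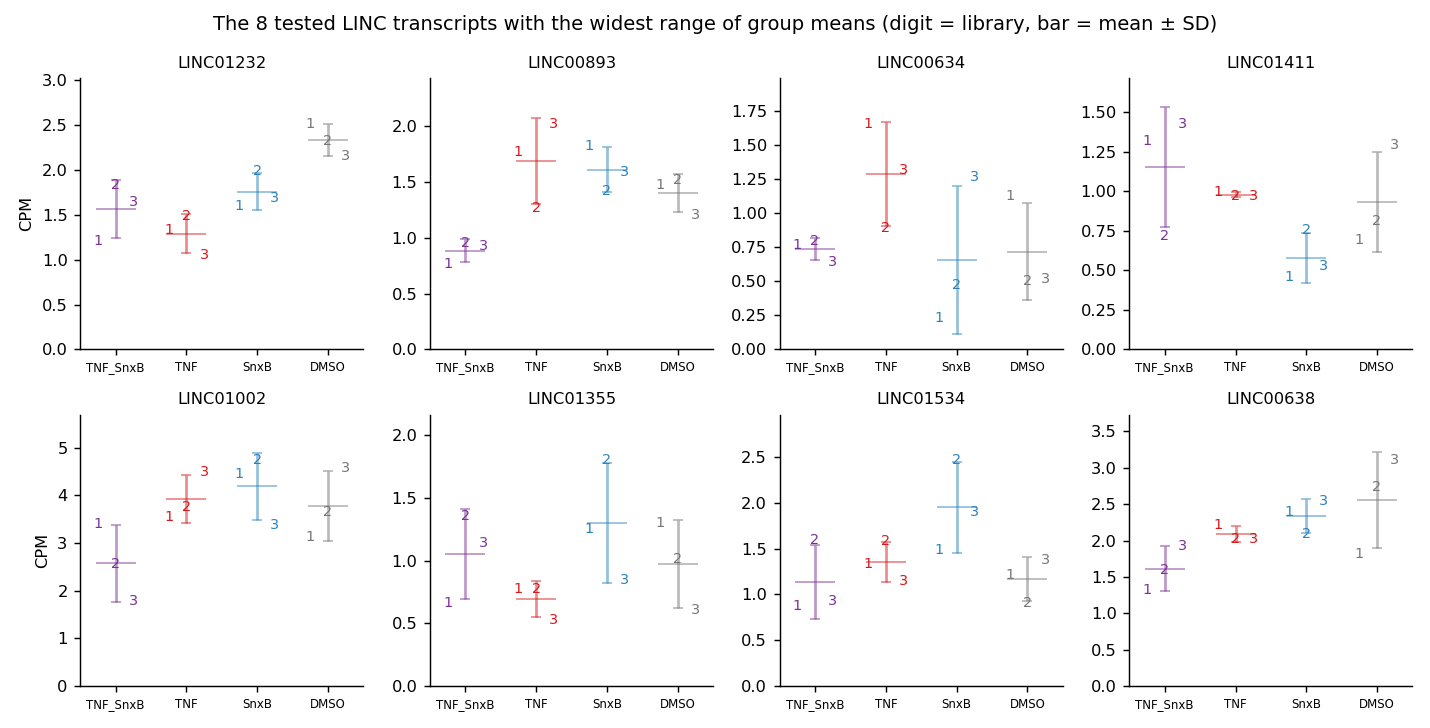
CPM by library (digits) and group, with mean and SD as bars, for the 8 tested members with the widest range of the 4 group means. LINC01232 is lower in all 3 TNF libraries than in all 3 DMSO libraries, and 5 of the 8 members lie under 2.5 CPM in every library.

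Precision followed level. In TNF against DMSO the median SE of the log2 fold change was 0.0865 for the 15 members at 10 CPM or more, 0.213 for 67 at 1 to 10 CPM and 0.341 for 13 tested members under 1 CPM. Over all tested members it was 0.209, against 0.0736 for all tested genes, and in TNF_SnxB against TNF it was 0.202, against 0.0723. The median log2 fold change of the members was 0.02 in TNF against DMSO, −0.01 in SnxB against DMSO, −0.02 in TNF_SnxB against TNF and −0.03 in TNF_SnxB against SnxB, beside 0.00 for all tested genes in each.

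In the TNF_SnxB comparisons the values of the members varied with GC content. The transcripts of the members had GC contents of 36.3% to 64.7% with a median of 49.5%. Across 94 tested members, which share the same libraries and are not replicates, the log2 fold change of TNF_SnxB against TNF had a Spearman correlation with GC content of −0.48, and of −0.17 when TNF_SnxB libraries 2 and 3 were left out. For all tested genes with a GC value these were −0.72 over 13744 genes and −0.17 over 14026 genes, as the filter was run anew. By library, the correlation of the members was −0.14 in TNF_SnxB library 1, −0.38 in library 2 and −0.38 in library 3. The 22 members under 45% GC had a median difference from the TNF mean of 0.03, 0.20 and 0.08 (log2 scale, 0.5 CPM added) in libraries 1, 2 and 3, and the 18 members over 55% GC of −0.25, −0.13 and −0.15. In TNF against DMSO the correlation of the members was 0.28, as for all genes. The part of GC content in the calls was not tested beyond the corrected values given above.

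**Figure D5:**
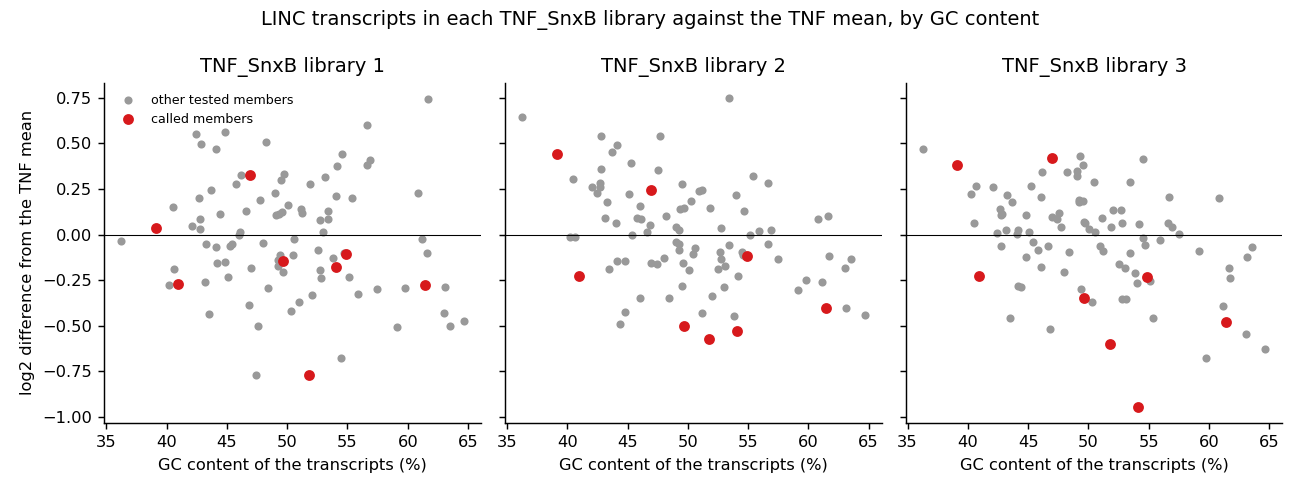
The log2 difference (0.5 CPM added) of each tested member in 1 TNF_SnxB library from the TNF mean, against the GC content of its transcripts, for libraries 1, 2 and 3, with the 8 called members in red. The points fall with GC content more clearly in libraries 2 and 3 (Spearman −0.38 in each) than in library 1 (−0.14).

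The coding genes beside the members were compared with them locus by locus. A nearest coding gene was tested together with its member at 74 loci. That neighbour was called at 1 locus in TNF against DMSO, at 2 in SnxB against DMSO, at 31 in TNF_SnxB against TNF and at 11 in TNF_SnxB against SnxB. As shares of the 74 loci these were 1.35%, 2.7%, 41.9% and 14.9%, beside 2.02%, 2.03%, 27.2% and 14.2% of all tested genes. Without TNF_SnxB libraries 2 and 3 the neighbour was called at 3, 6, 1 and 1 loci and both genes at 0 loci in each, and after the GC and length correction the neighbour was called at 6, 3, 10 and 3 loci. Both the member and the neighbour were called at 0, 0, 4 and 1 loci in these comparisons with all libraries, taken in the same order. After the GC and length correction both were called at 0, 0, 1 and 0 loci. The corrected neighbour calls were 8.11%, 4.05%, 13.5% and 4.05% of the 74 loci. Beside them 3.99%, 4.95%, 11.5% and 4.26% of all tested genes were called. Across the 74 loci the Spearman correlation of member and neighbour was 0.23, 0.02, 0.17 and 0.07, and overlapping exons are among the things the pairs share. At LINC00896 the neighbour RTN4R, a receptor of the Nogo pathway 32890 bp away, was also lower in TNF_SnxB cells, at −0.29 against TNF (edgeR adjusted p = 0.0415) and −0.48 against SnxB (edgeR adjusted p = 0.00716). Without TNF_SnxB libraries 2 and 3 neither was called, at −0.18 against TNF (edgeR adjusted p = 0.663) and −0.39 against SnxB (edgeR adjusted p = 0.294). After the GC and length correction neither was called, at −0.01 and −0.25 (edgeR adjusted p = 0.978 and 0.190). The other loci with both genes called in TNF_SnxB against TNF were LINC01128 with SAMD11, LINC00893 with CXorf40A and LINC00998 with GPR85. These neighbours had log2 fold changes of −0.25, −0.25 and 0.60 (edgeR adjusted p = 0.00191, 0.0240 and 0.0351). LINC00893 and CXorf40A share exon bases.

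LINC01126 on chromosome 2, chosen after its values were seen, had a neighbour called in both comparisons with DMSO. Its promoter window is shown because of that neighbour, and the window of LINC01232 because it was the member nearest to a call in TNF against DMSO. LINC01126 starts 601 bp from ZFP36L2, which encodes an RNA-binding protein of mRNA decay and is transcribed in the opposite direction. The windows are from RefSeq (GRCh38.p14), run 5′ to 3′ from 250 bases before to 50 after the start, and lie at chr2:43226961-43227260 on the plus strand and chr13:99499257-99499556 on the minus strand. Capitals mark matches on either strand to GGG and CC with any 5 bases between them, a loose form of the NF-kB motif.
LINC01126: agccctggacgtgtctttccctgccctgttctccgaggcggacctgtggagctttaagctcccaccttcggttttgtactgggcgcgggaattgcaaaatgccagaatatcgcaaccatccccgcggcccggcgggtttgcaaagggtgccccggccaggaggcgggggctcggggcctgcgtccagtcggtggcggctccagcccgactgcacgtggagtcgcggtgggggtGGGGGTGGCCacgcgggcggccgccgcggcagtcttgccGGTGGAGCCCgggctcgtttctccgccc
LINC01232: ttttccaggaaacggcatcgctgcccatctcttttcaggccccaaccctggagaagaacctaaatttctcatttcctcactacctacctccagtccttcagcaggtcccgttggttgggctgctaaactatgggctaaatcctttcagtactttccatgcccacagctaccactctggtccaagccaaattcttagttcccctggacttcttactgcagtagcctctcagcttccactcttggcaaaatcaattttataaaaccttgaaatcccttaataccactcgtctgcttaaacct

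The LINC01126 window held 2 matches and the LINC01232 window 0. The motif occurred in 68.2% of 85 member windows and in 58.0% of 27305 windows of all genes, and these had a median GC content of 62.3% and 58.3%. A match describes the letters in a window and no more. ZFP36L2 averaged 54.4 ± 3.60 CPM in TNF_SnxB, 68.9 ± 3.08 CPM in TNF, 48.6 ± 2.52 CPM in SnxB and 59.7 ± 1.45 CPM in DMSO cells (SD, n = 3 each). It rose with TNFα by 0.20 on the log2 scale (SE 0.0550, edgeR adjusted p = 0.0470) and fell with Senexin B to a log2 fold change of −0.29 (SE 0.0616, edgeR adjusted p = 0.00517). LINC01126 had 2.09, 1.91 and 1.57 CPM in TNF_SnxB, 0.664, 1.63 and 2.64 CPM in TNF, 1.60, 1.42 and 1.80 CPM in SnxB and 0.955, 1.92 and 1.47 CPM in DMSO cells. The TNF libraries spanned the values of all other groups. Its log2 fold change was 0.23 (SE 0.295, edgeR adjusted p = 0.879) for TNF against DMSO and 0.16 (SE 0.347, edgeR adjusted p = 0.930) for SnxB against DMSO, with 95% intervals of −0.38 to 0.83 and −0.55 to 0.88 that include the changes of ZFP36L2. At the untested member LINC01137 the neighbour ZC3H12A, an RNase of inflammatory mRNAs whose start is 141 bp away, was not called in any comparison.

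Shared sequence limited some members. Of 99 members with transcripts, 33 had no 50-base word in common with a gene at another place, 16 had over 10% of their words in common and 4 had over 50%, LINC01001, LINC01002, LINC01347 and LINC00623. Of the 8 called members, LINC01002 and LINC00893 were above 10%. LINC00623, which had an unadjusted edgeR p under 0.05 in TNF against DMSO and in SnxB against DMSO, had 64.6% of its words in common with other genes.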

How the data were processed

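For 12 HEK293 libraries the authors deposited a table of raw counts, with a row per gene symbol, a column per sample and no normalization. Per the submitters' processing notes they used STAR 2.4, featureCounts, Subread 1.4.6 and SAMtools 1.2 with hg38 (GRCh38). Neither the annotation nor the strand setting is given in the sources used here. Multi-mapping reads and overlapping genes can therefore have been dropped or shared in ways that lower the counts of members with copies.

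Counts were filtered with filterByExpr, scaled by TMM and fitted for all 14822 remaining genes in edgeR by quasi-likelihood, with group means over 12 libraries. Contrasts were tested two-sided with a Benjamini-Hochberg adjustment across those genes, and a member was called at an adjusted p under 0.05. SEs were taken from the fold change and its F statistic, and intervals are 95% intervals of the fit. CPM values use TMM-scaled totals. Alternatives were RLE size factors, DESeq2, no filter, only the groups compared, a replicate block, a loess correction for GC content and length (span 0.5), that correction with the block, and leaving out libraries. Leaving out libraries of groups not compared was added after the data were seen. Tools were edgeR 4.0.16, DESeq2 1.42.0 and limma 3.58.1 in R 4.3.3, and matplotlib 3.10.9 in Python 3.11.15.

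Positions, lengths, exons, GC content and coding sequences came from GENCODE release 29 (GRCh38), matched for 99 of 101 members (86 by symbol, 11 by a RefSeq synonym and 2 by symbol and position). Promoter windows came from RefSeq (GRCh38.p14), matched for 85 members. Words of 50 bases were compared with all GENCODE transcripts of genes at other places.

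The members, the lists and the tests were chosen with earlier results of these data known. Named were members called in a contrast, the 10 highest by CPM, the 10 highest by CPM per kb and the 8 widest in group means. The small-protein loci, those at the edge of the count rule and the neighbours of called members were named too. So were up to 3 other non-coding RNAs per contrast. LINC00511, LINC00623, LINC01001, LINC01126, LINC01347, TM9SF2, ZFP36L2, ZC3H12A, RMRP, DANCR and NORAD fell outside this and were named after their values were seen.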

Additional observations from a re-analysis of the deposited data

How the results depend on the processing

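The number of called members was 0 in TNF against DMSO, 0 in SnxB against DMSO, 7 in TNF_SnxB against TNF, 4 in TNF_SnxB against SnxB and 0 for the interaction. RLE size factors gave the same numbers. Members without an adjusted p from DESeq2 are not counted as lost. In TNF against DMSO 1 member, LINC01232, was called with only the groups compared, with the replicate block and the GC and length correction together, without TNF_SnxB libraries 2 and 3, and without TNF_SnxB library 1. In TNF_SnxB against TNF there were 3 calls with DESeq2, 4 without the filter, 4 with only the groups compared, 3 with the correction, 6 with correction and block and 0 without TNF_SnxB libraries 2 and 3. In TNF_SnxB against SnxB there were 1 with DESeq2, 0 with only the groups compared, 1 with the correction, 1 with correction and block, and 0 without libraries 2 and 3. LINC00998 turned to −0.00983 there without those libraries. For the interaction there was 1 call without the filter and 1 with the block, both LINC00998.

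Leaving out 1 library of the groups compared gave 0 to 0, 0 to 0, 2 to 12, 0 to 7 and 0 to 4 member calls in these comparisons, and 177 to 243, 172 to 208, 1869 to 6769, 512 to 5391 and 3 to 4534 calls over all tested genes. The 12, the 7 and the 4 came without TNF_SnxB library 1. In TNF_SnxB against TNF leaving out any TNF library gave 4, and leaving out TNF_SnxB library 2 or 3 gave 3 or 2. In TNF_SnxB against SnxB there were 0 without TNF_SnxB library 2 or 3 or SnxB library 1, 1 without SnxB library 2 and 2 without SnxB library 3.

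The replicate block gave 0, 0, 7, 4 and 1 member calls. Same-numbered libraries did not deviate together, with correlations of −0.04 to 0.0941 over 18 pairs, so the numbers were not taken to pair them.

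Over all tested genes, calls in TNF against DMSO were 300, and 776 with only those groups, 592 with the correction and 858 without TNF_SnxB libraries 2 and 3. In SnxB against DMSO they were 301, and 742, 733 and 864 under these settings. In TNF_SnxB against TNF they were 4029, and 2442, 1711 and 403, in TNF_SnxB against SnxB 2106, and 504, 631 and 219, and for the interaction 370, 736 with the block, 711 without the filter, 18 with the correction and 19 without libraries 2 and 3. The causes were not tested. The count rule gave 139 members at 5 counts, 69 at 20 counts and 63 with 10 counts in all 12 libraries. In TNF against DMSO the intervals of 51 of 95 members lay within a 1.5-fold change.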

Other observations

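A list of 41 other named non-coding RNAs, whose symbols do not have the form LINC followed by 5 digits, was read beside the members. In the table were 39 of them and 29 were tested by edgeR. None was called in TNF against DMSO or in SnxB against DMSO, where 2.02% and 2.03% of all tested genes were called. There 2 and 2 of the 29 had an unadjusted edgeR p under 0.05, beside 10.4% and 12.1% of all tested genes. In TNF_SnxB against TNF 6 were called, 4 higher and 2 lower, beside 27.2% of all tested genes. In TNF_SnxB against SnxB 0 were called, beside 14.2% of all tested genes, and for the interaction 0, beside 2.5%. An unadjusted edgeR p under 0.05 was found for 5 and 4 of the 29, beside 29.5% and 23.5% of all tested genes. Without TNF_SnxB libraries 2 and 3, where 30 were tested, HOTAIR and NEAT1 were called lower in TNF against DMSO and NEAT1 lower in SnxB against DMSO. In both TNF_SnxB comparisons 3 were then called, NEAT1, RMRP and RPPH1 (2 higher and 1 lower), and for the interaction 2, RMRP and RPPH1. After the GC and length correction there were 0, 1, 6, 1 and 0 calls in the 5 comparisons. NEAT1 was the 1 in SnxB against DMSO and RPPH1 the 1 in TNF_SnxB against SnxB. Of all tested genes 3.99%, 4.95%, 11.5%, 4.26% and 0.121% were called after this correction. The 6 in TNF_SnxB against TNF were then 2 higher and 4 lower, DANCR, MIR17HG, NEAT1, NORAD, RMRP and RPPH1. Without TNF_SnxB library 1, 9 of 30 were called in each TNF_SnxB comparison and 6 for the interaction. The shares of all tested genes were then 44.8% against TNF, 35.7% against SnxB and 30% for the interaction. RMRP and RPPH1 are the RNA components of the enzymes RNase MRP and RNase P, so their calls are not read as results on long non-coding RNAs. In TNF_SnxB cells they averaged 10.1 ± 14.3 and 11.0 ± 16.3 CPM (SD, n = 3 each), with each SD above its mean. In TNF cells they averaged 2.31 ± 1.68 and 1.79 ± 1.65 CPM (SD, n = 3 each). Without TNF_SnxB library 1, RPPH1 was not called in either TNF_SnxB comparison or for the interaction.

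NEAT1, the architectural RNA of paraspeckles, averaged 42.4 ± 4.91 CPM in TNF_SnxB, 50.4 ± 1.12 CPM in TNF, 47.5 ± 4.56 CPM in SnxB and 56.9 ± 5.99 CPM in DMSO cells (SD, n = 3 each). It fell in TNF_SnxB against TNF, at a log2 fold change of −0.24 (SE 0.0747, edgeR adjusted p = 0.0178), at −0.46 with TNF_SnxB library 1 alone (edgeR adjusted p = 0.000287) and at −0.33 after the GC and length correction (edgeR adjusted p = 1.07e-05). In SnxB against DMSO its log2 fold change was −0.25 (SE 0.0791, edgeR adjusted p = 0.105), and it was called without TNF_SnxB libraries 2 and 3 (edgeR adjusted p = 0.00201) and after the correction (edgeR adjusted p = 0.00161).

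OIP5-AS1 averaged 106 ± 11.4 CPM in TNF_SnxB and 89.7 ± 3.45 CPM in TNF cells (SD, n = 3 each), and DLEU2 averaged 9.37 ± 1.26 CPM in TNF_SnxB and 6.79 ± 0.378 CPM in TNF cells (SD, n = 3 each). Their log2 fold changes were 0.23 (edgeR adjusted p = 0.00372) and 0.45 (edgeR adjusted p = 0.00538). With TNF_SnxB library 1 alone these were 0.02 for OIP5-AS1 (edgeR adjusted p = 0.940) and 0.21 for DLEU2 (edgeR adjusted p = 0.709), and after the correction 0.08 and 0.24, neither called.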
